A study of Homo sapiens with 4 samples.

Results

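Long noncoding RNAs (lncRNAs) are long transcripts that are not known to be translated into protein, and many of them stay in the nucleus. The 10 lncRNA genes described here, MALAT1, NEAT1, HULC, PVT1, TUG1, NORAD, OIP5-AS1, DANCR, LINC-ROR and HOTAIR, were taken by symbol as a fixed list of abundant nuclear or cancer-linked lncRNAs. Of these, 9 were matched to 1 Ensembl identifier each among the 62893 genes of the count tables. HULC, an lncRNA known for its high level in liver tumours, could not be matched and was not analysed here. Enough reads for a comparison were found for 7 of the 9: MALAT1, NEAT1, PVT1, TUG1, DANCR, OIP5-AS1 and NORAD. HOTAIR had 3 reads in all and LINC-ROR had none.

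The reads came from total RNA of Hep-G2, a hepatoma-derived human cell line. One group of cells carried a short hairpin RNA (shRNA, construct TRCN0000246247) against FTO, which encodes a demethylase that removes N6-methyladenosine (m6A) from RNA, and is called shFTO here. The other carried a scramble control shRNA (construct SHC002). Each group had 2 count tables, labelled as replicates 1 and 2 and called runs here, all cells were at passage 21, and each group rests on a single shRNA construct.

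MALAT1 and NEAT1 are neighbouring genes on chromosome 11 whose RNAs stay in the nucleus, MALAT1 in nuclear speckles, where splicing factors gather, and NEAT1 as the scaffold of paraspeckles. MALAT1 is a known carrier of m6A. The 3′ ends of MALAT1 and of the long NEAT1 isoform are cut by RNase P and protected by an RNA triple helix instead of a poly(A) tail. NORAD is a mostly cytoplasmic lncRNA that binds Pumilio proteins, and OIP5-AS1, the human counterpart of cyrano, is also found in the cytoplasm. TUG1 has been linked to the Polycomb repressive complex PRC2, DANCR hosts a small nucleolar RNA, PVT1 lies beside MYC, and HOTAIR lies in the HOXC cluster.

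The sequences below show the features named above. They are sense-strand stretches of the longest transcripts in GENCODE v29, an annotation of build GRCh38, given in DNA letters from 5′ to 3′. For MALAT1 and NEAT1, both on the plus strand of chromosome 11, 100 bases that end with the genome-encoded A-rich tract are shown, with the U-rich motifs and the A-rich tract of the triple helix in capitals. They cover bases 8256 to 8355 of the MALAT1 transcript of 8708 bases and bases 22644 to 22743 of the NEAT1 transcript of 22743 bases.
MALAT1: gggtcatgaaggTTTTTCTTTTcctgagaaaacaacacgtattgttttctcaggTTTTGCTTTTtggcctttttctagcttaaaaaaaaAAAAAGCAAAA
NEAT1: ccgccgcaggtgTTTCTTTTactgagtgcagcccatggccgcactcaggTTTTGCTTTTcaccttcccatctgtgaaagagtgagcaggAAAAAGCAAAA
Both transcripts hold TTTTGCTTTT once, followed within 60 bases by AAAAAGCAAAA. The first motif alone was found in 3.97% and the second alone in 1.45% of the longest transcripts of 13457 tested genes, searched on the sense strand only. The pair of motifs in that order and spacing was found in 3 of them, those of MALAT1, NEAT1 and RETREG3.

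NORAD, on the minus strand of chromosome 20, is shown for its Pumilio motifs, TGTANATA, of which closely spaced pairs are printed with 12 bases on each side and the motifs in capitals. The stretches start at bases 1430, 2627 and 3263 of its transcript of 5339 bases.
NORAD pair at 1430: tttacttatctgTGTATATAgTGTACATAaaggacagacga
NORAD pair at 2627: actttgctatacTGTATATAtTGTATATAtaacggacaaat
NORAD pair at 3263: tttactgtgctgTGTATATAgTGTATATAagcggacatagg
The NORAD transcript held 15 such motifs, or 2.81 per kb, a density above that of nearly all of the 13457 transcripts, of which 31.2% held any. NEAT1 held 6, HOTAIR 3, TUG1 2, OIP5-AS1 1, and MALAT1, PVT1, DANCR and LINC-ROR none. The core of the m6A consensus, GGACT, was counted in the same way and was found in 91.6% of the transcripts, with a median of 0.924 per kb. MALAT1 held 13 copies, or 1.49 per kb, NEAT1 19 (0.835 per kb), TUG1 7 (0.937 per kb), OIP5-AS1 7 (0.793 per kb), PVT1 2 (1.18 per kb), NORAD 2 (0.375 per kb), HOTAIR 8 (3.30 per kb), LINC-ROR 3 (1.15 per kb) and DANCR none. A motif match is a description of the sequence, and no methylation was measured.

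The tables held 20220271 and 20706611 gene-assigned reads in shFTO and 20047409 and 20474554 in scramble. FTO itself had 116 and 128 reads in the shFTO runs against 594 and 550 in the scramble runs, 5.32-fold lower in shFTO (4.63 to 6.13). The runs of a group differed by no more than sampling noise (chi-square per degree of freedom 1.013 over 13674 genes for shFTO, p = 0.142, and 1.019 over 13359 genes for scramble, p = 0.0648), so they were pooled and counted as 1 sample per group. The comparison below is therefore of 1 sample with 1 sample. It has no replicate check, and its intervals cover counting error only. In such bulk RNA, fewer cells of a type and less RNA per cell cannot be told apart. All 8 hepatocyte markers of a fixed list (among them ALB, TTR and APOA1) had reads in every run, and their summed level was 17130 CPM (reads scaled to library size) in shFTO and 39970 CPM in scramble. By pooled ratio 5 of the 8 were at least 2-fold lower, TTR and AHSG most. Of 16 markers of fibroblast, endothelial, blood and neural cells 6 were at 0 reads in all runs, PECAM1, PTPRC and LUM among them, and the sum of all 16 was 8.95 CPM in shFTO and 24.7 CPM in scramble. PDGFRB was at 3.62 CPM in shFTO and 23.3 CPM in scramble, most of the scramble sum, and COL1A1 was at 3.12 CPM in shFTO and 0.131 CPM in scramble. The part of these shifts in the lncRNA values was not tested.

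None of the 7 lncRNAs was changed 2-fold. MALAT1 stood furthest above scramble in shFTO cells, at 1.66-fold, followed by NEAT1 at 1.42-fold and PVT1 at 1.30-fold. TUG1 and DANCR were at 1.12-fold and 1.11-fold, and NORAD and OIP5-AS1 were lower in shFTO, by 1.27-fold and 1.20-fold. Over 13767 tested genes, 5.18% were higher in shFTO by 2-fold or more and 6.19% were lower to that extent, so 0 of 7 on either side lies near the background and says nothing particular of these lncRNAs. Those shares are 713 genes higher and 852 lower, against 940 higher and 659 lower with plain library size. Past 1.5-fold, the only one was MALAT1 on the higher side, where 11.4% of all tested genes lay, and none was on the lower side, where 13.4% lay. With plain library size NEAT1, at a log2 ratio of 0.67, was past 1.5-fold as well. Among 1022 tested genes annotated as lncRNA, 7.24% were past 2-fold and 16.4% past 1.5-fold on the higher side, and 10.8% past 2-fold and 22.6% past 1.5-fold on the lower side. The median log2 ratio was 0.16 over the 7 lncRNAs, -0.055 over the tested lncRNA genes (0.11 with plain library size) and 0.0093 over all tested genes.

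**Figure D1:**
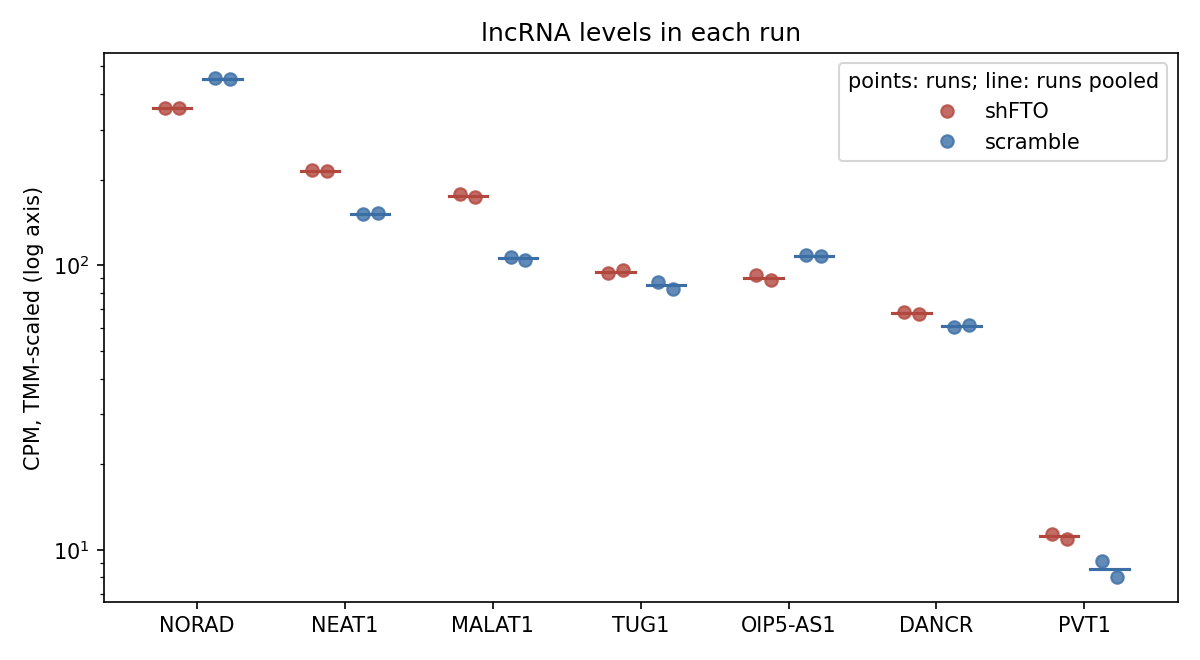
Level of each of the 7 lncRNAs in CPM (log axis) with shFTO left of scramble; points are the 2 runs of a group and lines the pooled runs. The runs of a group lie close together for every lncRNA, and PVT1, at about 10 CPM, has the widest gap between runs (1.13-fold between the scramble runs).

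MALAT1 (ENSG00000251562) had 3822 and 3799 reads in the shFTO runs, against 2027 and 2018 in the scramble runs. With edgeR's TMM scaling of library sizes, which centres the ratios of most genes, this was 179 and 173 CPM in shFTO and 107 and 105 CPM in scramble. Both shFTO runs were above both scramble runs. The pooled runs gave 176 CPM in shFTO and 106 CPM in scramble, a ratio of 1.66 (95% counting interval 1.60 to 1.73) and a log2 ratio of 0.73. Of all tested genes 91.8% had a lower log2 ratio, and 125 of the 1022 lncRNA genes had a higher one.

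NEAT1 (ENSG00000245532), the paraspeckle scaffold, had 4626 and 4704 reads in shFTO and 2853 and 2941 in scramble. Its level was 216 and 214.5 CPM in the shFTO runs against 151 and 152 CPM in the scramble runs, again with no overlap. The pooled ratio was 1.42 (1.37 to 1.47), a log2 ratio of 0.51, and 86.1% of tested genes had a lower one. The tables give 1 count for the gene, so reads of the short and the long NEAT1 isoform were not separated, and only the long one forms the triple helix shown above.

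The intervals of MALAT1 and NEAT1 did not overlap, so the pair of chromosome 11 neighbours was higher to different extents in these libraries. A count ratio within a run needs no scaling: MALAT1 had 82.6 and 80.8 reads per 100 NEAT1 reads in shFTO and 71.0 and 68.6 in scramble. Other genes near them differed in direction. FRMD8, on the side of NEAT1, was 1.47-fold higher (1.33 to 1.62), with 524 and 512 reads in shFTO and 299 and 324 in scramble. SLC25A45, a mitochondrial carrier gene, was 1.35-fold lower (1.03 to 1.78) on 44 and 55 reads in shFTO and 60 and 58 in scramble.

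MALAT1 and the long NEAT1 isoform lack a poly(A) tail, and no source used here says whether polyadenylated RNA was selected. Of 16 genes listed as RNAs without a poly(A) tail, 11 were matched and 3 had enough reads to test. RN7SK, an abundant nuclear RNA of RNA polymerase III, had 2 and 0 reads in shFTO and 1 and 1 in scramble, and RMRP had 0 reads in all runs. The summed level of the 11 was 24.6 CPM in shFTO and 17.3 CPM in scramble, of which HIST1H2BK held 15.8 and 10.3 CPM. All 3 tested genes were histone genes, and whether their reads came from RNA without a poly(A) tail was not measured. HIST1H2BK, a histone H2B gene, was 1.53-fold higher (1.35 to 1.74), and HIST2H2AC, a histone H2A gene, was 1.59-fold lower (1.03 to 2.50). Mitochondrially encoded mRNAs took 1.28% of the reads in each shFTO run and 0.768% and 0.763% in the scramble runs. The part of these shifts in the MALAT1 and NEAT1 values was not tested.

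PVT1 (ENSG00000249859), a chromosome 8 lncRNA gene often amplified together with MYC, had 244 and 239 reads in shFTO and 172 and 155 in scramble. This was 11.4 and 10.9 CPM in shFTO and 9.10 and 8.03 CPM in scramble, with no overlap between the groups. The ratio of 1.30 had the widest interval of the 7 (1.13 to 1.503), since PVT1 had the fewest reads. MYC itself, with 3676 and 3800 reads in shFTO and 3500 and 3604 in scramble, was 1.08-fold lower (1.04 to 1.11). Its log2 ratio of -0.11 turns above 0 with plain library size, which adds more than this to every gene. Among the other genes at this locus CASC11 had 1 and 0 reads in shFTO and 3 and 2 in scramble, and GSDMC had 1 read in all.

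TUG1 (ENSG00000253352) had 2005 and 2112 reads in shFTO and 1651 and 1596 in scramble, or 93.7 and 96.3 CPM in shFTO and 87.4 and 82.7 CPM in scramble. The ratio was 1.12 (1.07 to 1.17). MORC2, the chromatin gene on the other side of its promoter, was at a ratio of 1.05, MORC2-AS1 at 1.41 on 39 and 49 reads in shFTO and 28 and 27 in scramble, and SMTN, a smooth muscle structural gene, at 1.26 (1.16 to 1.36).

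DANCR (ENSG00000226950), known for holding back differentiation, had 1468 and 1483 reads in shFTO and 1151 and 1192 in scramble. Its level was 68.6 and 67.6 CPM in shFTO and 60.9 and 61.7 CPM in scramble, a ratio of 1.11 (1.05 to 1.17). An antisense pseudogene, AC104066.1, overlaps 11.9% of its exons and had 5 and 6 reads in shFTO and 7 and 7 in scramble. The nearby deubiquitinase gene USP46 was at 1.14 (1.05 to 1.23), and ERVMER34-1 had 6 and 5 reads in shFTO and 9 and 3 in scramble. For TUG1 and DANCR the groups did not overlap, but this held for 81.6% of all tested genes and for all 7 lncRNAs.

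NORAD (ENSG00000260032), which keeps Pumilio proteins from their mRNA targets, was the one with the most reads among the 7 in both groups. It had 7672 and 7847 reads in shFTO and 8608 and 8715 in scramble, or 359 and 358 CPM in shFTO and 456 and 451 CPM in scramble. Both shFTO runs were below both scramble runs, and the gene was 1.27-fold lower in shFTO (1.24 to 1.29), a log2 ratio of -0.34. Of all tested genes 23% had a lower one. Its neighbour EPB41L1, a cytoskeletal protein gene, was 1.11-fold lower (1.07 to 1.16), though not with plain library size, and CNBD2 had 10 and 17 reads in shFTO and 9 and 16 in scramble.

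OIP5-AS1 (ENSG00000247556) had 1972 and 1942 reads in shFTO and 2048 and 2086 in scramble. Its level was 92.2 and 88.5 CPM in shFTO and 108 CPM in each scramble run, which is 1.20-fold lower in shFTO (1.15 to 1.25). The gene is transcribed in the opposite direction to OIP5, whose exons cover 3.71% of its exons in GENCODE v29, and no strand setting was given, so reads in that stretch cannot be assigned with certainty. OIP5 had 302 and 321 reads in shFTO and 264 and 244 in scramble, a ratio of 1.08 (0.96 to 1.22). Further along, the mitotic gene NUSAP1 was at 1.10 (1.05 to 1.15) and the calcium-binding protein gene CHP1 was 1.29-fold lower (1.24 to 1.35).

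HOTAIR (ENSG00000228630), an lncRNA linked to PRC2 and to tumour spread, had 2 and 1 reads in shFTO and 0 in both scramble runs. Both groups were at or under 3 reads, so no fold is given. The flanking genes also had few reads: HOXC10 had 3 and 5 reads in shFTO, HOXC11 1 and 1, and HOXC12 2 and 2, and none of these had a read in scramble. LINC-ROR (ENSG00000258609), a regulator of reprogramming described in pluripotent cells, had 0 reads in all runs. A count of 0 allows up to 3 reads over the pooled runs, or 0.0692 CPM in shFTO and 0.0785 CPM in scramble. Its neighbours were measured: TXNL1 was at a ratio of 1.01, WDR7 at 1.33 (1.15 to 1.54), and ONECUT2, a liver transcription factor gene, was 1.34-fold lower (1.18 to 1.53). Near the unmatched HULC, SLC35B3 was at a ratio of 0.937 and EEF1E1 was 1.16-fold lower (1.03 to 1.31).

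**Figure D2:**
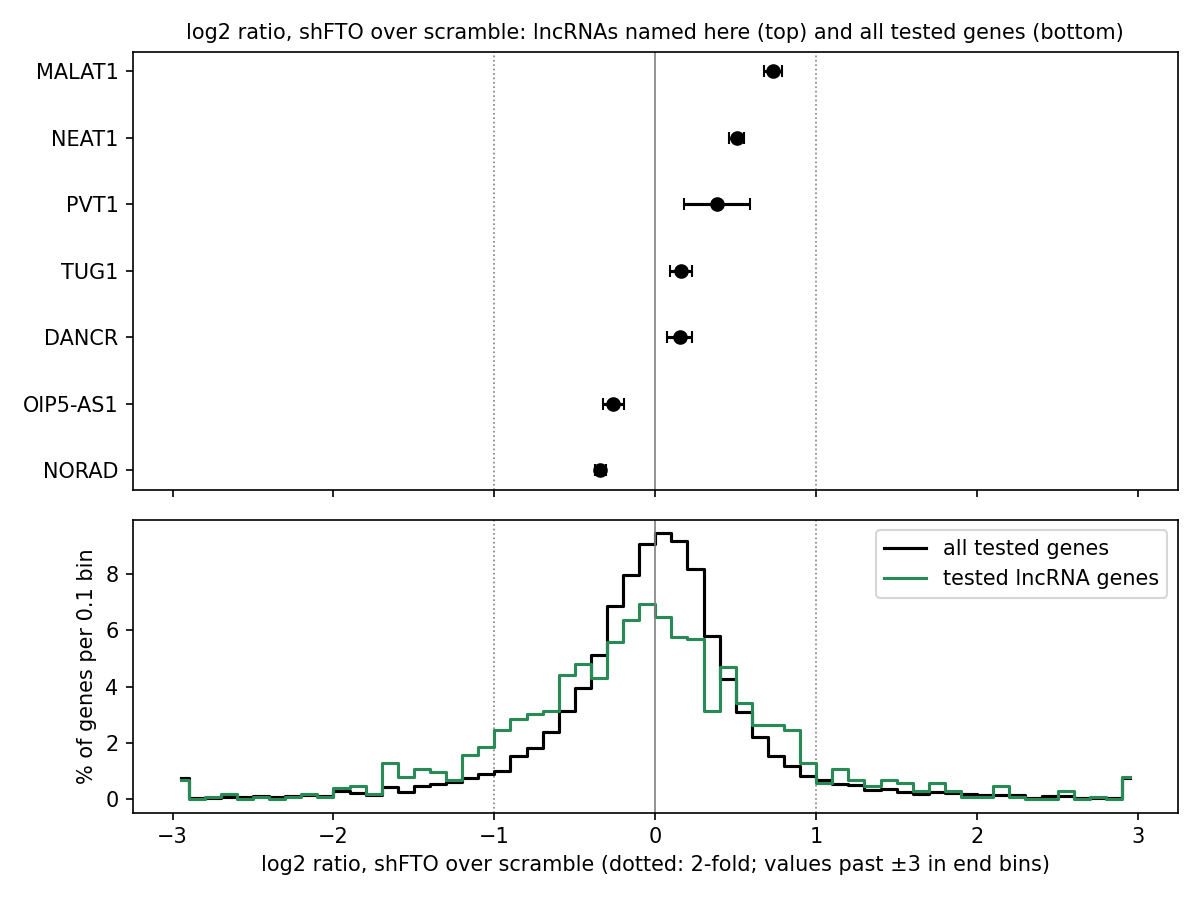
Log2 ratio of shFTO over scramble for the 7 lncRNAs with 95% counting intervals (top), above the share of genes in each bin of 0.1 over all tested genes and over tested lncRNA genes (bottom); dotted lines mark 2-fold. The values run from -0.34 for NORAD to 0.73 for MALAT1, and all lie within 2-fold.

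Another scaling multiplies the ratios of all genes by 1 factor, so it moves the 7 values together and leaves their order. TMM raised the effective library size of shFTO by factors of 1.06 in both runs and lowered that of scramble by factors of 0.943 and 0.944. With plain library size the median over all tested genes was 0.18 in place of 0.0093 (log2), MALAT1 was at 0.90, NORAD at -0.17 and OIP5-AS1 at -0.093. No direction among the 7 was turned by DESeq2 size factors, upper quartile scaling or plain library size. Set against NORAD in the same run, where scaling has no part, MALAT1 had 49.8 and 48.4 reads per 100 NORAD reads in shFTO and 23.6 and 23.2 in scramble. NEAT1 had 60.3 and 59.95 in shFTO and 33.1 and 33.8 in scramble. OIP5-AS1 had 25.7 and 24.8 in shFTO and 23.8 and 23.9 in scramble, the smallest shift of the 6 against NORAD. These ratios show unequal change and not which of the pair changed.

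**Figure D3:**
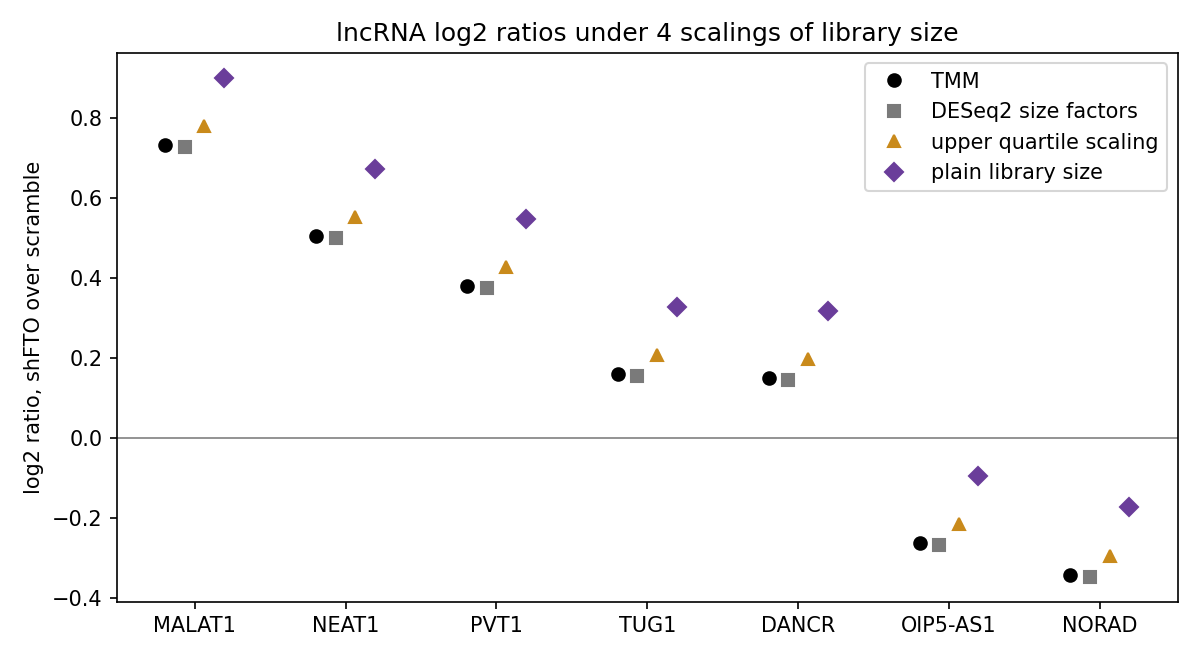
Log2 ratio of shFTO over scramble for each lncRNA under 4 ways to scale library size (marker shapes). Plain library size lifts every value, MALAT1 to 0.90 and NORAD to -0.17, and no point crosses 0.

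By edgeR's quasi-likelihood test on the 4 tables, with Benjamini-Hochberg adjustment over all tested genes, 5 of the 7 were called higher (MALAT1, NEAT1, PVT1, TUG1, DANCR) and 2 lower (OIP5-AS1, NORAD). The same test called 33.2% of all genes higher and 33.4% lower, or 4576 and 4594 genes, against 6709 higher and 3042 lower with plain library size. Since the runs of a group differ by no more than sampling, the calls set 1 pair of libraries against the other and not 1 condition against the other, and nothing is read from 7 calls among 7. By DESeq2's Wald test PVT1 and DANCR were not called.

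Per kilobase of annotated exon, NORAD was highest in both groups, at 67.1 CPM per kb in shFTO and 84.9 in scramble. DANCR followed at 29.8 in shFTO and 26.8 in scramble, and MALAT1 at 19.9 in shFTO and 11.99 in scramble. In shFTO the next were NEAT1 at 9.46 (9.27 to 9.65) and TUG1 at 9.36 (9.08 to 9.65), which did not differ beyond counting error, then OIP5-AS1 at 7.13 and PVT1 at 2.03. In scramble OIP5-AS1 at 8.54 (8.28 to 8.80) and TUG1 at 8.37 (8.09 to 8.67) did not differ beyond it, and NEAT1 at 6.66 and PVT1 at 1.56 came after them. Among 1022 tested lncRNA genes by this measure, NORAD ranked 1 in shFTO and 2 in scramble. DANCR ranked 7 in shFTO and 8 in scramble, MALAT1 13 in shFTO and 27 in scramble, and NEAT1 29 in shFTO and 64 in scramble. The level depends on the length used. In a calculation added after the data were seen, with the longest annotated transcript of 904 bases in place of 2285 exon bases, DANCR was at 75.3 CPM per kb in shFTO, above NORAD, and at 67.8 in scramble, below it. With that length TUG1, at 12.7 in shFTO, and OIP5-AS1, at 10.2 in shFTO, stood above NEAT1 at 9.47 in shFTO, so the order of these 3 rests on the length. In scramble OIP5-AS1 was then at 12.3, TUG1 at 11.4, MALAT1 at 12.2 and NEAT1 at 6.67. PVT1 was at 6.56 in shFTO and 5.04 in scramble, still lowest in both groups. For NEAT1 both lengths, 22767 and 22743 bases, span the long isoform, and reads of the short isoform were not separated. Its levels and ranks per kb hold for that length only, and its place among the 7 is not settled by them. Whether RNAs without a poly(A) tail, such as MALAT1 and the long NEAT1 isoform, were captured as well as the others was not tested.

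Genes for proteins that work with these lncRNAs stayed within 2-fold by pooled ratio with TMM, while with plain library size PRKACB, at a log2 ratio of 1.01, was past it. The counts of calls below are edgeR's, to be read against 33.2% of all tested genes called higher and 33.4% called lower, and like those they move with the scaling. Calls also depend on read depth: HNRNPK, a paraspeckle protein gene named outside the rule of size, was called higher at a ratio of 1.049 (1.035 to 1.064). A number of calls above those shares is therefore not read as a result about a list. Of 26 tested paraspeckle protein genes none was 2-fold changed, 15 were called higher and 7 lower, and their median log2 ratio was 0.11. RBM7 was the only one past 1.5-fold with TMM, at 1.61-fold lower (1.46 to 1.76), and it was not past it with plain library size. The core paraspeckle proteins, singled out after their values were seen, went both ways: SFPQ was 1.24-fold higher (1.21 to 1.26) and PSPC1 1.20-fold higher (1.15 to 1.25), while NONO was 1.21-fold lower (1.19 to 1.23). Of 26 nuclear speckle and splicing protein genes, the compartment of MALAT1, 16 were called higher and 5 lower (median 0.18), and SRSF6, a splicing factor, was 1.76-fold higher (1.70 to 1.82). Of 11 genes for RNase P, RNase Z and METTL16, which process or bind the MALAT1 3′ end, 5 were called higher and 2 lower (median 0.29). METTL16, a methyltransferase that binds the MALAT1 triple helix, was 1.60-fold higher (1.49 to 1.71), and POP1, a subunit of RNase P, was 1.54-fold higher (1.38 to 1.72).

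Against the same shares of 33.2% higher and 33.4% lower, 8 of 15 PRC2 and CoREST genes were called higher and 3 lower (median 0.088), with the PRC2 subunit EED 1.61-fold higher (1.51 to 1.71). Of 8 genes for NORAD-binding proteins 3 were called higher and 4 lower, none past 1.5-fold (median -0.0096, above 0 with upper quartile scaling and with plain library size). The Pumilio gene PUM2, named outside the rule of size, was at a ratio of 1.06 (1.02 to 1.10). Of 10 further binders and regulators 8 were called higher and 2 lower (median 0.24). Among them PRKACB, a catalytic subunit of protein kinase A, was 1.79-fold higher (1.55 to 2.07). Of 18 tested neighbours of the 10 lncRNA genes 5 were called higher and 6 lower, close to those shares. None was past 1.5-fold with TMM, while FRMD8 and MORC2-AS1 were past it with plain library size. The median was -0.027, but above 0 with upper quartile scaling, with plain library size and over genes of at least 1 CPM.

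**Figure D4:**
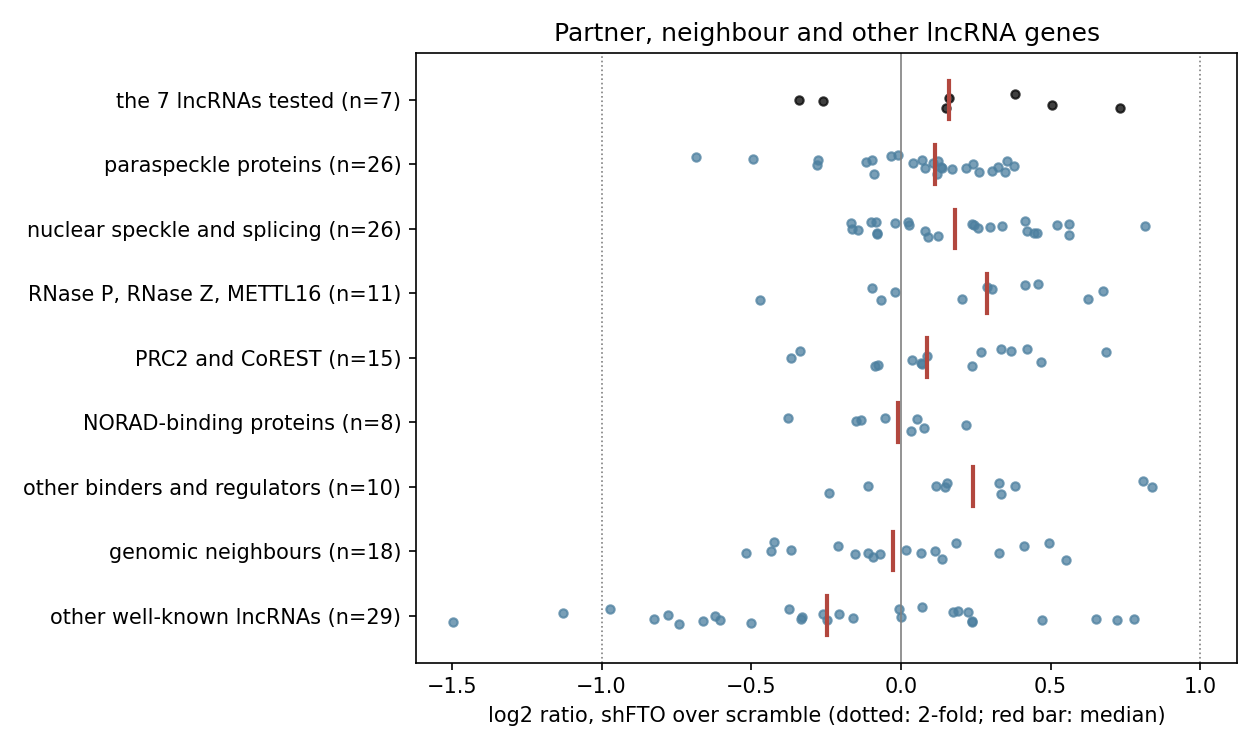
Log2 ratio of shFTO over scramble for each tested gene (points) in the 7 lncRNAs and in 8 lists of partner, neighbour and other lncRNA genes, with the median as a red bar and dotted lines at 2-fold. With TMM scaling no partner or neighbour gene is past 2-fold, and the only genes beyond the lower line are 2 of the other well-known lncRNAs.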

How the data were processed

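RNA-seq read counts of 4 tables from Hep-G2 cells were used, 2 per group, grouped and numbered by the sample titles. The authors deposited raw, unnormalized read counts per Ensembl gene ID. Build hg19, HTSeq 0.6.0 and TopHat2 2.1.1 are listed in the submitters' processing notes; the annotation release and strand use are not given in the sources used here. Symbols, gene types and exon lengths were matched by identifier to GENCODE v29 (GRCh38), which with a table of gene names gave symbols for 51537 of 62893 genes and for 194 of 200 list symbols; no gene coordinates are printed. The members and lists were chosen with earlier results of these data known.

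Runs of 1 group were set against each other with a chi-square test over genes with at least 20 reads, then pooled. Folds are ratios of pooled CPM, scaled by TMM over 13767 genes that passed filterByExpr, with exact 95% intervals (Clopper-Pearson, on how reads split between groups); levels per kb carry exact Poisson intervals. Both cover counting error only. The planned test, the quasi-likelihood test of edgeR (version 4.0.16 under R 4.3.3; Benjamini-Hochberg adjusted p under 0.05; common dispersion 9.77e-05, 2 residual degrees of freedom), is reported as calls only and was tested on simulated data. Named were all 10 lncRNAs, FTO, all neighbours, and in each other list up to 4 genes each way past 1.5-fold; genes outside this rule are marked, and a few genes that it names are not reported here. Alternatives were 3 other scalings, 2 other count filters, other fold limits, DESeq2 1.42.0, a replicate block, leaving out each run and, added after seeing the data, transcript length.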

Additional observations from a re-analysis of the deposited data

How the results depend on the processing

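The direction of each of the 7 lncRNAs held under the 3 other scalings, without each run and with the replicate block. With plain library size the log2 ratios were 0.90 for MALAT1, 0.67 for NEAT1, 0.33 for TUG1, 0.32 for DANCR, -0.093 for OIP5-AS1 and -0.17 for NORAD, and with upper quartile scaling NORAD was at -0.29; the added shift applies to all genes alike. Leaving out 1 run gave 0.71 to 0.75 for MALAT1, 0.49 to 0.51 for NEAT1, 0.29 to 0.47 for PVT1, 0.12 to 0.19 for TUG1, 0.13 to 0.16 for DANCR, -0.29 to -0.24 for OIP5-AS1 and -0.35 to -0.34 for NORAD. At 1.5-fold 1569 genes were higher and 1841 lower, 1 of the lncRNAs (MALAT1) among the higher, and at 4-fold 218 and 215. Without a filter beyond 1 read 5331 genes were at least 2-fold higher and 4464 lower, and 1 lncRNA was counted as higher, HOTAIR on its 3 reads. With plain library size edgeR called 6709 genes higher and 3042 lower, against 4576 and 4594 with TMM. DESeq2's Wald test called 3 of the lncRNAs higher in place of 5. The median of tested lncRNA genes turned to 0.11 with plain library size, that of NORAD-binding proteins to 0.037 with upper quartile and 0.16 with plain scaling, and that of the neighbours to 0.020, 0.14 and, over genes of at least 1 CPM, 0.018. The replicate block gave 4606 higher and 4610 lower calls and left all 7 lncRNA calls as they were; same-numbered runs did not deviate together (r = 0.017 across 10250 genes, which are not independent), so the numbers were not taken as pairs. PVT1 is limited by depth, and no value here has an error between cultures.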

Other observations

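Of 29 tested genes in a list of other well-known lncRNAs 15 were called lower and 4 higher by edgeR's test, which called 33.4% of all tested genes lower and 33.2% higher (median log2 ratio -0.25, or -0.078 with plain library size). Among the 1022 tested lncRNA genes the same test called 255 lower and 162 higher, so calls in that class also lean to the lower side. Within the list, outside the 11 host genes of small nucleolar RNAs picked by name below, 5 of 18 were called lower and 4 higher. The median of those 18 was 0.12. MIR210HG, the host transcript of a hypoxia-linked microRNA, was 2.82-fold lower (2.29 to 3.48), with 67 and 63 reads in shFTO and 161 and 162 in scramble. SNHG14, an imprinted snoRNA host transcript, was 2.19-fold lower (2.06 to 2.32), and SNHG12 was 1.77-fold lower (1.54 to 2.04). H19, the imprinted fetal lncRNA, was at 13 and 9 reads in shFTO and 22 and 16 in scramble. On the higher side LINC00511 was at 1.57-fold (1.45 to 1.70), while UCA1 and MIR17HG, at 1.71 and 1.65, had intervals that include 1.

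DANCR, at a log2 ratio of 0.15 and not called by DESeq2's Wald test, differed in sign from 11 host genes of small nucleolar RNAs picked by name. Other genes of the list were not searched for hosted small nucleolar RNAs. Of 11 such genes tested in that list (the SNHG genes, GAS5 and ZFAS1, grouped after their values were seen), 11 had a log2 ratio below 0 from -1.13 to -0.0063. The median was -0.37, or -0.21 with plain library size, where 10 of the 11 were below 0. Over all tested genes the median was 0.0093, or 0.18 with plain library size. SNHG1, at -0.0063, was not called by edgeR.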
